A study of Homo sapiens with 16 samples.

Results

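The Raf-by-oxygen interaction in IMR90 fibroblasts is the change in open chromatin on Raf activation in hypoxia minus the same change in normoxia, and it drew on 16 of 16 libraries of the series. IMR90 is a line of human lung fibroblasts. All cells had been infected with a retrovirus that encodes ΔB-RAF:ER, a truncated B-RAF kinase fused to a hormone-binding domain that 4-hydroxy-tamoxifen (4-OHT) switches on. The assay was ATAC-seq, in which the Tn5 transposase inserts adapters into open chromatin, and each library came as a list of called peaks. The 4 groups of 4 replicates were Raf-inactivated cells in normoxia, Raf-activated cells in normoxia, Raf-inactivated cells in hypoxia (0.5% O2) and Raf-activated cells in hypoxia (0.5% O2). The labels give no duration for either treatment, do not say how the Raf-inactivated cells were handled in place of 4-OHT, and do not say whether replicates were separate cultures. The p-values below therefore reflect only how these libraries vary, and that variation may be technical.

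Sustained RAF-MEK-ERK signalling drives fibroblasts into oncogene-induced senescence, a stable arrest held by the p16 and p53 pathways and marked by secreted inflammatory factors and reorganised heterochromatin. Low oxygen stabilises the hypoxia-inducible factors, which bind a short response element and raise genes of glycolysis, angiogenesis and oxygen sensing. Because both treatments act on chromatin, an interaction asks whether the Raf response at a locus depends on the oxygen state. A positive difference means that the Raf change was higher in hypoxia, whether by a smaller loss, a larger gain or a turned sign. A negative difference means that it was lower in hypoxia.

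At promoters a peak was counted as listed or not, whatever its strength. Of 22131 promoter windows in the RefSeq table (GRCh38.p14, 250 bases before to 50 after each start, 15811 genes), 124 (0.56%) were all-or-none in every group in a pattern with a positive difference. Another 67 (0.303%) had a pattern with a negative one. All-or-none means a peak over the window in 4 of 4 or in 0 of 4 libraries of each group, and no test was made on these counts. Windows with a peak in every group except Raf-active normoxia numbered 51, and windows with a peak in Raf-active hypoxia alone numbered 52. In Raf-active normoxia alone there were 32. The other classes were small, with 22 windows lacking a peak in Raf-inactive normoxia alone, 13 lacking one in Raf-inactive hypoxia alone, 12 with a peak in Raf-inactive hypoxia alone, 7 with one in Raf-inactive normoxia alone and 1 lacking one in Raf-active hypoxia alone. The last 3 of these counts depended on peak strength: over peaks listed with 5-fold enrichment or more they were 22, 25 and 16.

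Background read depth was not equal between the groups, so every peak list was also thinned to the lowest background (matched depth below). At matched depth the 3 largest classes held 40, 28 and 29 windows in the order given, and of the full-depth members 20 of 51, 20 of 52 and 23 of 32 stayed in their class. From 5 classes, 6 windows that stayed, chosen after their values were seen, are printed 5′ to 3′ on the strand of the gene. Capitals mark the letters of an AP-1 site (TGANTCA) or of the hypoxia response element core (ACGTG) on either strand. C1QL3, which encodes a secreted synaptic protein, lies on the minus strand at chr10:16521830-16522129, and MXI1, which encodes a MAX partner that opposes MYC, on the plus strand at chr10:110209981-110210280. Both lacked a peak in Raf-active normoxia alone. The MXI1 promoter stood apart from its locus, where the log2 difference in peak number (defined below) was -0.06 ± 0.12 (limma, adjusted p = 0.777). CCL20 (plus strand, chr2:227813592-227813891), a chemokine of inflamed tissue, had a peak in Raf-active normoxia alone. That peak was weak, at 1.74 to 2.23-fold. FURIN (plus strand, chr15:90868338-90868637), a protease that matures secreted precursors, had one in Raf-active hypoxia alone, at 2.45 to 3.02-fold. TNIP3 (minus strand, chr4:121164272-121164571), a partner of the NF-kB inhibitor A20, was the 1 window that lacked a peak in Raf-active hypoxia alone. BBC3 (minus strand, chr19:47232618-47232917), the p53 target PUMA, lacked one in Raf-inactive normoxia alone. Where listed, the TNIP3 peak was at 5.51 to 20.5-fold and the BBC3 peak at 2.43 to 4.50-fold.
C1QL3: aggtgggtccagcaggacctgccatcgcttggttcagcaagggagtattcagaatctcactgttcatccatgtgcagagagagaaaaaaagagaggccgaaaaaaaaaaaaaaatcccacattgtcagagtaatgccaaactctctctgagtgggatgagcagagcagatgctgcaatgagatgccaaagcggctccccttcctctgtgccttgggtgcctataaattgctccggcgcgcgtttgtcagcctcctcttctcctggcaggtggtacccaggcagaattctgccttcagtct
MXI1: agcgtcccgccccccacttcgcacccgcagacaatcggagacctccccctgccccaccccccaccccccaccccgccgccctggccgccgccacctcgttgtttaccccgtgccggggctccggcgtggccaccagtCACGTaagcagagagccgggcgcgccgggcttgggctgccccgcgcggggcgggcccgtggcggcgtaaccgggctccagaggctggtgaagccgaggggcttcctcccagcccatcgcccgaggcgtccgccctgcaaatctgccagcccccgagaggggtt
CCL20: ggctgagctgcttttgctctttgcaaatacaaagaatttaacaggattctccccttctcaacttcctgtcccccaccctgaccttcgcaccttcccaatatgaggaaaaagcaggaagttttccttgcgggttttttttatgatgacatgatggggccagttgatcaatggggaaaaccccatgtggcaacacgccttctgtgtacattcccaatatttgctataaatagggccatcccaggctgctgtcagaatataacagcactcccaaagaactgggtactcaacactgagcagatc
FURIN: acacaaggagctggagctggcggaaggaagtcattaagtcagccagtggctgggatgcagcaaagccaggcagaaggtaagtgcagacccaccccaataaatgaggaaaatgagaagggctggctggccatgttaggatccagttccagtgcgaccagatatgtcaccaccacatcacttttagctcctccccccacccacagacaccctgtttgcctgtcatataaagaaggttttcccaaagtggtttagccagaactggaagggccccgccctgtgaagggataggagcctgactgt
TNIP3: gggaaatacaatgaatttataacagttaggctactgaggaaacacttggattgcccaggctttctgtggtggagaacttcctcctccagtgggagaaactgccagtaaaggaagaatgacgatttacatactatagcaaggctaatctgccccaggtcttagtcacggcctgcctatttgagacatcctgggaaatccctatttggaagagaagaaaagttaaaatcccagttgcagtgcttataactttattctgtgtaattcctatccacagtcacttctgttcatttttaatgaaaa
BBC3: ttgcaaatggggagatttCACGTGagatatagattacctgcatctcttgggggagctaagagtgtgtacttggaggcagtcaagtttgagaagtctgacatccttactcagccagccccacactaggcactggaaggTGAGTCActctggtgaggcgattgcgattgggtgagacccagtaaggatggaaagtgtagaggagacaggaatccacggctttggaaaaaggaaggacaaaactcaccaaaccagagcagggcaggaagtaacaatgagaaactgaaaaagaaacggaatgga

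The AP-1 letters were in 6.15% of all promoter windows, in 5 of the 32 with a peak in Raf-active normoxia alone (15.6%), in 5 of the 51 that lacked one there alone (9.80%) and in 5 of the 52 with a peak in Raf-active hypoxia alone (9.62%). The hypoxia core was in 23.1% of all windows and in 3, 13 and 12 of the same classes (9.38%, 25.5% and 23.1%). The MXI1 window held 1 core match, and the BBC3 window held 1 AP-1 match and 2 core matches that overlap as a palindrome. The other 4 printed windows held neither. A match is a run of letters, not a bound site.

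The promoters in these classes belonged to genes of varied roles. The windows with a peak in Raf-active normoxia alone, also at matched depth, included S100A8 (a calcium-binding protein of inflamed and keratinised tissue), IVL (involucrin, of the keratinocyte envelope), ELF3 (an epithelial ETS factor), CFLAR (an inhibitor of caspase 8) and PPARGC1A (a coactivator of mitochondrial genes). Those with a peak in every group but Raf-active normoxia, also at matched depth, included PFKM (muscle phosphofructokinase), CD63 (a tetraspanin of late endosomes), VEGFD (a lymphangiogenic growth factor) and MAP2K6 (a kinase upstream of p38). Those with a peak in Raf-active hypoxia alone, also at matched depth, included NEUROG1 (a neurogenic factor), GAD2 (a GABA-synthesising enzyme), L1CAM (a neural adhesion molecule) and NLRC4 (an inflammasome component). The PLEKHD1 window was the single crossed case, with a peak in Raf-inactive normoxia and Raf-active hypoxia only, and at matched depth 0 windows were crossed. These names were picked after the values were seen.

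Depth itself carried an interaction. The background pileup recovered from the lists was 3.23 ± 0.24 reads (SD, n = 4) in Raf-inactive normoxia, 6.75 ± 0.45 in Raf-active normoxia, 4.79 ± 0.19 in Raf-inactive hypoxia and 7.32 ± 0.75 in Raf-active hypoxia. Its log2 difference of differences was -0.46, and the Raf-inactive normoxia libraries were the shallowest. Lists held 169287 to 206757 distinct peaks on chromosomes 1 to 22 and X. The starts of PDGFRA, PDGFRB, VIM, S100A4 and TBX5, the 5 of 11 fibroblast markers with a start in the table, had a peak in 16 of 16 libraries. The starts of the blood genes PTPRC and LCP1 and the neuronal gene ELAVL4 had one in 0 of 16. The starts of KRT8 (epithelial), CD14 (blood), SYP and RBFOX3 (neuronal) had one in 16 of 16. The epithelial starts of NKX2-1 and CLDN4 had one in 4 of 4 libraries of each group, except 2 of 4 in Raf-active normoxia for NKX2-1 and 3 of 4 in Raf-inactive normoxia for CLDN4. The neuronal start of NEUROD1 had one in 1 of 16, a Raf-inactive hypoxia library. The 3 endothelial starts in the table differed by group, with ERG listed in 1 of 4 Raf-inactive normoxia libraries and in 4 of 4 of each other group, TIE1 listed in the 8 Raf-active libraries alone and TEK listed in 1 of 4 Raf-active normoxia libraries and in 4 of 4 of each other group. Their part in the results was not tested.

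At gene loci the interaction was widespread. A locus is a protein-coding gene with 10 kb on each side, and its value is the number of peaks it holds, scaled so that every library has the same total. Of 15217 loci averaging 3 or more peaks, 2976 (19.6%) were called by limma at a Benjamini-Hochberg adjusted p below 0.05, 1508 (9.91%) positive and 1468 (9.65%) negative. At matched depth 2454 were called, 1698 loci were called at both depths, and 2742 of the 2766 called loci that could be tested at matched depth had the same sign. The median size of a called difference was 0.58 on the log2 (scaled peaks + 1) scale, and 261 called loci, 162 positive and 99 negative, differed by at least 1. At 1571 loci (10.3%), 1480 of them called, no choice of 1 library per group turned the sign. Across all tested loci the median difference was -0.01.

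**Figure D1:**
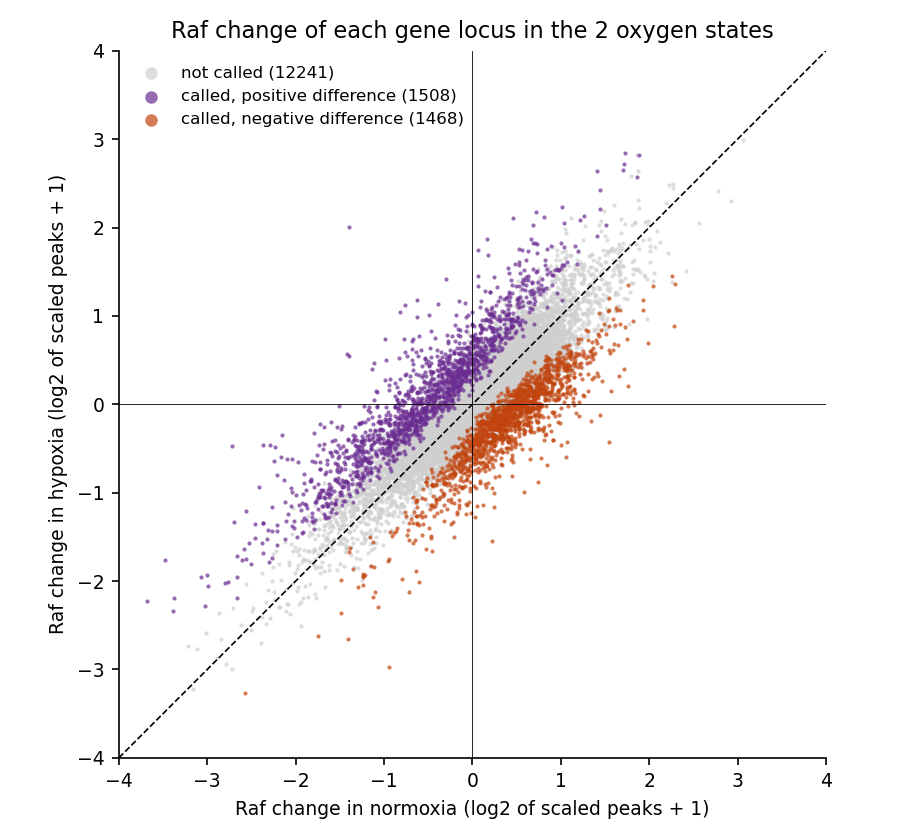
Each point is 1 of 15217 gene loci, with the Raf change in normoxia on the horizontal axis and in hypoxia on the vertical axis, both in log2 of scaled peaks + 1. Purple points (1508) lie above the dashed line of equal change and were called positive, and orange points (1468) lie below it and were called negative.

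The called loci differed from the others in how the Raf response was altered. The Raf change had the opposite sign in the 2 oxygen states at 39.2% of called loci, against 20.2% of all tested loci. It was of the same sign but smaller in hypoxia at 39.5% of called loci (43.3% of all), and larger in hypoxia at 21.3% (36.5% of all). The group farthest from the mean of the 4 was Raf-active normoxia at 1390 called loci (46.7%, against 35.0% of all tested). Raf-active hypoxia was the farthest group at 659, Raf-inactive hypoxia at 500 and Raf-inactive normoxia at 427. At matched depth the share of called loci with Raf-active normoxia farthest was 45.3%, against 34.8% of all. The spread of the Raf change over loci was an SD of 0.64 in normoxia and 0.60 in hypoxia. These shares are descriptions: the calls were made on the same values.

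The called positive loci lay at longer genes. Their median gene length was 82.5 kb, against 35.0 kb for called negative loci and 32.2 kb for all tested loci. At 773 of the 1508 positive loci the farthest group was a low Raf-active normoxia, and at 617 of the 1468 negative loci it was a high one. A low Raf-active hypoxia was farthest at 399 negative loci, and a high one at 260 positive loci. Longer loci hold more peaks, with a median of 8.69 scaled peaks at positive loci, 6.95 at negative loci and 6.63 at all, so that precision differs between these sets.

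The 10 named loci with the largest positive difference were led by SMYD1, which encodes a histone methyltransferase of heart and skeletal muscle (chr2:88067825-88113384). SMYD1 held 1, 2, 3 and 5 peaks in the Raf-inactive normoxia libraries, 0, 0, 1 and 1 in Raf-active normoxia, 1, 1, 1 and 1 in Raf-inactive hypoxia and 10, 6, 10 and 7 in Raf-active hypoxia. The 4 Raf-active hypoxia libraries were above the other 12. Its log2 difference was 3.41 ± 0.39 (SE, n = 4 per group; limma, adjusted p = 1.34e-05). With 50 kb on each side in place of 10 kb it was 1.01. SMYD1 had too few peaks for a test at matched depth, so its size there is not known.

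ICA1 encodes a BAR-domain protein of secretory vesicles (chr7:8113184-8262555). It held 7, 5, 4 and 5 peaks in normoxia without active Raf, 0, 0, 0 and 0 in normoxia with it, 7, 8, 7 and 7 in hypoxia without it and 5, 6, 6 and 7 in hypoxia with it. Raf-active normoxia was the group apart, with no overlap with the others. The difference was 2.24 ± 0.18 (limma, adjusted p = 3.23e-07), 2.20 at matched depth and 0.89 with 50 kb on each side. DCHS2, a large protocadherin, and PKHD1, the gene of recessive polycystic kidney disease, had the same shape. DCHS2 held 4, 5, 4 and 2, then 0, 0, 0 and 0, then 6, 5, 6 and 6, then 5, 4, 5 and 5 peaks in the same order of groups, and its difference was 1.83 ± 0.23 (without the log 2.03 scaled peaks, adjusted p = 0.0517). PKHD1 differed by 1.92 ± 0.31, with 0 to 1 peak in Raf-active normoxia and 2 to 6 in every other library. C1QL3, whose promoter is printed above, differed by 1.81 ± 0.29, with 3, 5, 5 and 3, then 0, 1, 0 and 0, then 5, 5, 3 and 4, then 4, 4, 4 and 3 peaks. DCHS2, PKHD1 and C1QL3 were below the mean for testing at matched depth.

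At GRID1, PHACTR3 and TNR Raf-active hypoxia was the high group. GRID1, a delta-type glutamate receptor subunit, held 12, 6, 9 and 8 peaks in normoxia without active Raf, 7, 6, 5 and 7 in normoxia with it, 9, 10, 6 and 6 in hypoxia without it and 24, 20, 24 and 20 in hypoxia with it. Only the Raf-active hypoxia libraries stood clear of the rest. The difference at GRID1 was 1.80 ± 0.23 (limma, adjusted p = 3.41e-05; 1.62 at matched depth). PHACTR3, a regulator of protein phosphatase 1 and actin, held 8, 5, 7 and 6, then 2, 3, 2 and 2, then 7, 6, 5 and 7, then 13, 13, 10 and 10 peaks. The 2 Raf-inactive groups overlapped, and the Raf-active libraries lay below them in normoxia and above them in hypoxia. Its difference was 1.95 ± 0.19 (adjusted p = 3.65e-06; 1.46 at matched depth). TNR, the brain matrix protein tenascin-R, had the same turn of sign, with 2, 3, 5 and 3, then 1, 2, 1 and 3, then 5, 5, 4 and 5, then 13, 10, 15 and 14 peaks and a difference of 1.86 ± 0.28 (2.09 at matched depth). SKOR2, a neural corepressor of the SKI family, differed by 2.00 ± 0.29 (1.85 at matched depth), and the uncharacterised LOC124901872 by 1.88 ± 0.29.

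**Figure D2:**
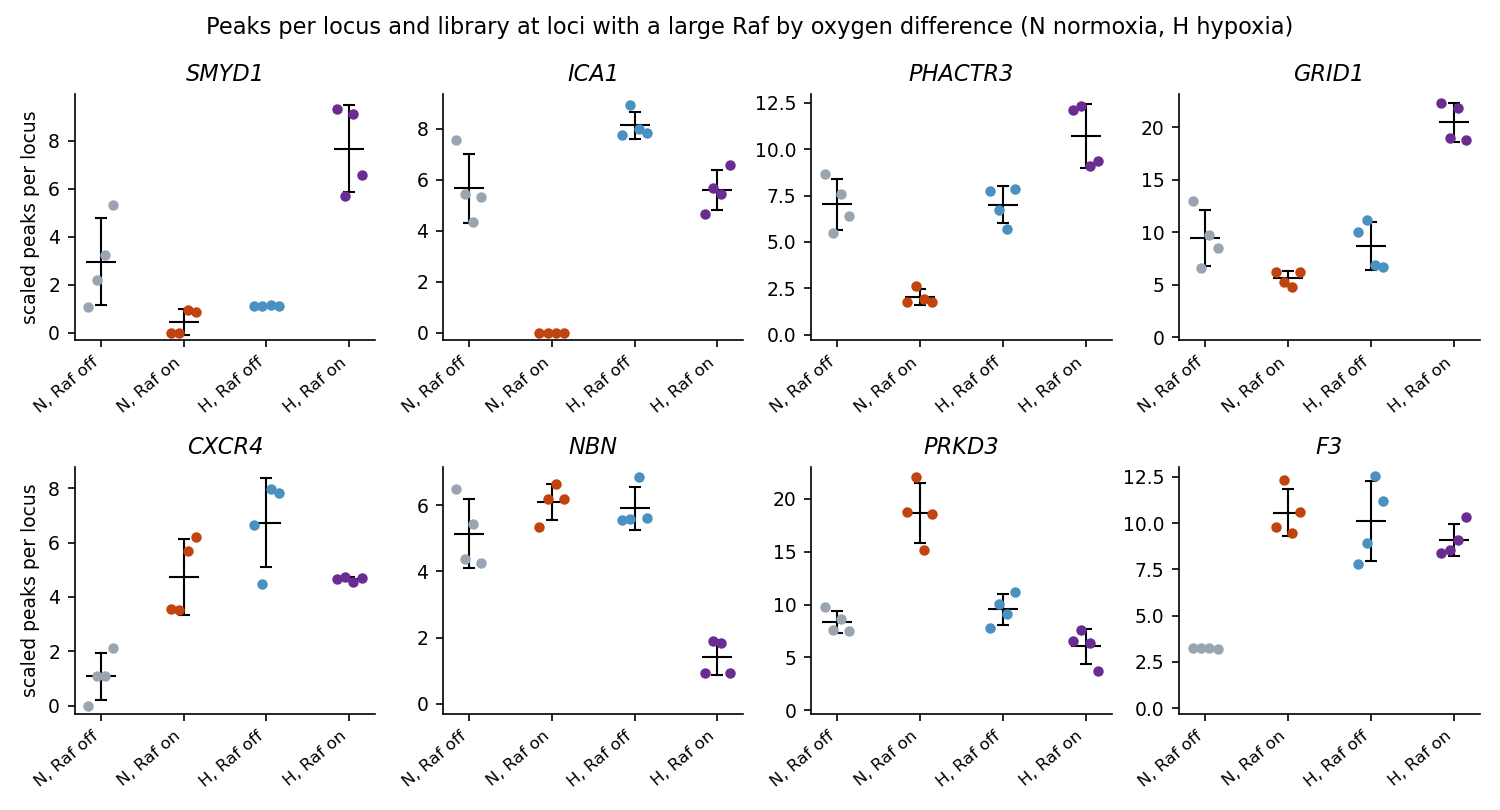
Each panel plots scaled peaks per locus for the 16 libraries, by group (N normoxia, H hypoxia), with a bar at the mean and whiskers of 1 SD (n = 4). The upper 4 loci have positive differences from 1.80 to 3.41, and the lower 4 have negative differences from -1.97 to -1.57.

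Negative loci fell into 3 shapes. At PRKD3, which encodes protein kinase D3 (chr2:37250502-37324833), the libraries held 9, 7, 8 and 7 peaks in normoxia without active Raf, 21, 25, 16 and 21 in normoxia with it, 7, 9, 8 and 10 in hypoxia without it and 7, 8, 7 and 4 in hypoxia with it. Raf-active normoxia alone was high. The difference was -1.66 ± 0.21 (limma, adjusted p = 3.53e-05; -1.50 at matched depth). COL19A1, a minor fibril-associated collagen, held 6, 5, 6 and 6, then 12, 12, 14 and 15, then 7, 7, 5 and 7, then 5, 3, 5 and 5 peaks, and differed by -1.53 ± 0.18 (-1.78 at matched depth). CLPX, the unfoldase of the mitochondrial ClpXP protease, differed by -1.53 ± 0.23 (-0.82 at matched depth), and ZNF780B, a zinc finger gene of chromosome 19, by -1.56 ± 0.18. CASP4, the caspase that senses cytosolic lipopolysaccharide, held 3, 3, 2 and 3, then 6, 7, 5 and 7, then 4, 3, 3 and 5, then 2, 1, 3 and 2 peaks, for a difference of -1.62 ± 0.25. The PRKD3 value was -0.27 over peaks listed with 5-fold enrichment or more (limma, adjusted p = 0.486). With 50 kb on each side the CASP4 value was -0.43 (limma, adjusted p = 0.0885). CASP4 and ZNF780B were below the mean for testing at matched depth.

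In the second shape the Raf-inactive normoxia libraries alone were low, so that the Raf change in hypoxia started from a higher level. F3, which encodes tissue factor, the initiator of coagulation (chr1:94529173-94541759), held 3, 3, 3 and 3 peaks in normoxia without active Raf, 11, 14, 10 and 12 in normoxia with it, 7, 8, 11 and 10 in hypoxia without it and 9, 9, 10 and 11 in hypoxia with it. The last 3 groups overlapped, and the first did not reach them. The difference was -1.57 ± 0.16 (limma, adjusted p = 6.45e-06; -1.68 at matched depth). CXCR4, the receptor of CXCL12 (chr2:136114349-136118149), held 0, 1, 1 and 2, then 4, 4, 6 and 7, then 6, 4, 7 and 7, then 5, 5, 5 and 5 peaks. Its difference was -1.97 ± 0.35 (adjusted p = 0.000637) but -1.19 at matched depth (adjusted p = 0.013), and Raf-inactive normoxia was the shallowest group. KDR, the main VEGF receptor of endothelium, behaved alike, with 1, 1, 1 and 1, then 4, 3, 4 and 4, then 5, 3, 4 and 5, then 4, 3, 4 and 3 peaks and a difference of -1.50 ± 0.19 (adjusted p = 4.19e-05). KDR was below the mean for testing at matched depth, and when each peak was given to its nearest gene its value was -0.06 (adjusted p = 0.715).

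In the third shape Raf-active hypoxia was the lowest group. At NBN it was low alone. NBN encodes nibrin of the MRE11 complex, which senses DNA double-strand breaks. It held 6, 4, 5 and 4 peaks in normoxia without active Raf, 6, 7, 7 and 7 in normoxia with it, 5, 5, 6 and 5 in hypoxia without it and 1, 2, 2 and 1 in hypoxia with it, with no overlap between the last group and the rest. The difference was -1.77 ± 0.20 (limma, adjusted p = 1.6e-05; -1.22 at matched depth). NECAB1, a neuronal calcium-binding protein, held 4, 3, 4 and 3, then 1, 3, 1 and 2, then 10, 7, 7 and 6, then 0, 1, 0 and 0 peaks. Its Raf-inactive hypoxia libraries were the highest, and its 2 Raf-active groups were both low and overlapped at 1 peak. NECAB1 had the most negative difference of the named loci, -2.03 ± 0.32 (limma, adjusted p = 0.000246). It was below the mean for testing at matched depth. ESM1, the secreted proteoglycan endocan, held 3, 3, 3 and 3, then 7, 7, 5 and 5, then 6, 5, 4 and 5, then 2, 2, 3 and 3 peaks. Its Raf-inactive normoxia and Raf-active hypoxia libraries were both low and overlapped at 3 peaks. Its difference was -1.57 ± 0.18 (adjusted p = 1.6e-05) but -0.70 at matched depth (adjusted p = 0.0103).

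The size of these differences depended on the interval counted. With 50 kb on each side the values at LOC124901872, SKOR2 and DCHS2 were 0.58, 1.24 and 1.09, and those at F3, CXCR4, ESM1, NBN, NECAB1 and CLPX were -0.67, -1.30, -0.53, -0.94, -1.19 and -0.85, each 1.5 times or more closer to 0 and still called by limma. When each peak was given to its nearest gene they were -0.28 at F3, -0.68 at CXCR4, -0.31 at ESM1, 1.03 at DCHS2 and 1.20 at PHACTR3, all called, and -0.19 at CASP4 (adjusted p = 0.199). For the gene body alone NBN was -0.65, and by base pairs covered F3 was -0.62 and CLPX -0.79. At equal list length the values at NBN, ESM1, CLPX and PHACTR3 were -1.13, -0.83, -0.96 and 1.28, all called. The COL19A1 value was larger, at -2.63, over peaks listed with 5-fold enrichment or more.

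Of the 14 loci chosen for senescence, Raf signalling and hypoxia whatever their value, 4 were called. CDKN2A, which encodes the arrest proteins p16 and ARF (chr9:21967752-21995324), held 5, 6, 5 and 7 peaks in normoxia without active Raf, 14, 15, 12 and 15 in normoxia with it, 7, 5, 7 and 6 in hypoxia without it and 10, 8, 8 and 10 in hypoxia with it. The Raf-active normoxia libraries were above all others, and the Raf-active hypoxia libraries were above both Raf-inactive groups in peak number. Scaled levels were 6.21 ± 0.991, 12.6 ± 0.885, 7.02 ± 1.10 and 8.39 ± 1.11 (SD, n = 4), and the difference was -0.69 ± 0.16 (limma, adjusted p = 0.00565; -0.71 at matched depth). The neighbouring CDKN2B, which encodes p15 and was named after its values were seen, held 3, 2, 2 and 2, then 8, 7, 7 and 9, then 2, 2, 2 and 2, then 4, 3, 4 and 4 peaks. Its difference was -0.76 ± 0.17 (adjusted p = 0.00333; -0.89 at matched depth). The 2 intervals overlap and share peaks, so they are not separate evidence. Over peaks listed with 5-fold enrichment or more the CDKN2A difference was -0.34 (adjusted p = 0.052).

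CXCL8, the neutrophil chemokine IL-8, held 3, 4, 4 and 4 peaks in normoxia without active Raf, 7, 6, 8 and 7 in normoxia with it, 4, 4, 4 and 4 in hypoxia without it and 4, 3, 3 and 3 in hypoxia with it. The Raf-active normoxia libraries stood alone. The difference was -0.99 ± 0.16 (limma, adjusted p = 0.000294; -0.67 at matched depth). HMGA2, an architectural protein of senescence-associated heterochromatin foci, differed by -0.39 ± 0.09 (adjusted p = 0.00508), with 26 to 29, 38 to 45, 31 to 34 and 35 to 40 peaks in the same order. EGLN3, a HIF prolyl hydroxylase that is itself a HIF target, was the 1 positive call, at 0.85 ± 0.15 (adjusted p = 0.000695; 0.71 at matched depth). It held 4, 3, 3 and 3, then 1, 1, 1 and 1, then 6, 7, 6 and 6, then 5, 6, 5 and 6 peaks, so that Raf-active normoxia was the low group. On scaled peaks without the log the EGLN3 difference was 0.73 peaks and missed the threshold (adjusted p = 0.388).

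The other 10 of these loci missed the threshold. With base pairs covered in place of peak number, CDKN1A (-0.32), LMNB1 (-0.30), IL1A (-0.28) and IL1B (-0.35) passed (limma, adjusted p from 0.00249 to 0.0162). By peak number CDKN1A (p21) had a difference of -0.36 ± 0.19 (limma, adjusted p = 0.198) and LMNB1 (lamin B1) of -0.32 ± 0.16 (adjusted p = 0.156). The cytokine loci IL1A, IL1B and IL6 had values of -0.18 ± 0.12, -0.46 ± 0.18 and -0.04 ± 0.18, with adjusted p of 0.323, 0.0837 and 0.892. IL1A passed at matched depth (-0.37, adjusted p = 0.0452), and IL6 changed sign there (0.09). MMP1, an interstitial collagenase, had 0.08 ± 0.12, and DUSP6, an ERK phosphatase, had -0.29 ± 0.20. The telomerase gene TERT had -0.37 ± 0.42, the most uncertain of the 14, with 0 to 2 peaks in each Raf-inactive library and 8 to 15 in each Raf-active one. VEGFA and CA9, both HIF targets, had 0.25 ± 0.17 and -0.04 ± 0.15. Both changed sign at matched depth, at -0.07 and 0.02. A miss at this number of libraries does not show that the Raf change was equal in the 2 oxygen states.

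Gene lists were described by their calls beside the 9.91% positive and 9.65% negative of all loci. Arrest and senescence genes had 9 negative and 2 positive calls among 37 tested, with a median difference of -0.26. UBN1, a histone H3.3 chaperone subunit linked to senescence heterochromatin, differed by -0.87 ± 0.16. The 2 positive calls were RBL1, the pocket protein p107, at 1.09 ± 0.24, and GLB1, the lysosomal galactosidase behind the usual senescence stain, at 0.90 ± 0.15. RBL1 had its lowest mean in Raf-active normoxia (5.84 scaled peaks against 10.5, 8.42 and 10.5). Its Raf-inactive hypoxia libraries (5.55, 11.2, 6.85 and 10.1) overlapped that group. GLB1 was low in Raf-active normoxia alone (7.43 against 14.3, 12.6 and 13.1). Genes of the senescence secretome (SASP) had 7 negative calls and 1 positive among 44, with a median of -0.11. IGFBP5, an IGF-binding protein, differed by -0.94 ± 0.20 and CXCL3, a neutrophil chemokine, by -0.78 ± 0.13.

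RAF-MAPK response genes had 6 negative calls and 1 positive among 47, with 33 of 47 values below 0 and a median of -0.19. ELK4 and SRF, partners at serum response elements, differed by -0.92 ± 0.15 and -0.64 ± 0.17, and KLF6, an early response factor, by -0.61 ± 0.14. At ELK4 the low group was Raf-active hypoxia, at 3.03 scaled peaks against 6.08 to 6.73 in the others. At SRF the high group was Raf-active normoxia, at 7.91 against 3.24 to 4.89. Among 15 AP-1 genes, which encode the dimer that binds the AP-1 letters, 1 was called: BATF, at 0.47 ± 0.14.

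HIF targets went the other way in their calls, with 7 positive and 2 negative among 49, but their median was 0.01. P4HA1, a collagen prolyl hydroxylase, differed by 0.77 ± 0.16 and was low in Raf-active normoxia alone (6.30 scaled peaks against 9.09 to 12.9), a call that missed by nearest gene (0.48, adjusted p = 0.0581), with 50 kb on each side (0.33, adjusted p = 0.0563), at equal list length (0.48, adjusted p = 0.0764) and over peaks listed with 5-fold enrichment or more (0.25, adjusted p = 0.415). TMEM45A differed by -0.80 ± 0.13 and was low in Raf-active hypoxia (5.35 against 11.04 to 16.7). Glycolysis genes had 2 positive calls and 1 negative among 22. PDK1, which restrains pyruvate entry into mitochondria, differed by 0.59 ± 0.09 and was highest in Raf-active hypoxia (30.3 scaled peaks against 21.4 to 25.1). PGK1, a glycolytic kinase, differed by 0.51 ± 0.18 (limma, adjusted p = 0.0484), and that call was lost at matched depth (adjusted p = 0.156). GAPDH, a glycolytic dehydrogenase, differed by -0.44 ± 0.14.

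Chromatin regulators held many calls. Among 34 histone methyltransferase genes 11 were negative and 5 positive, 47.1% called in all. SMYD1 is one of the 5. EZH1, a Polycomb enzyme, differed by -0.96 ± 0.19 and ASH1L, a Trithorax-group enzyme, by -0.67 ± 0.12, each with its high group in Raf-active normoxia (7.66 scaled peaks against 2.97 to 5.12, and 37.7 against 18.2 to 20.8). Heterochromatin and lamina genes had 8 negative calls and 1 positive among 28, with HP1BP3 at -0.99 ± 0.12, DNMT1, the maintenance DNA methyltransferase, at -0.82 ± 0.17, and CBX5, which encodes HP1 alpha, at -0.77 ± 0.19. Over peaks listed with 5-fold enrichment or more DNMT1 and CBX5 turned sign, to 0.31 and 0.17 (limma, adjusted p = 0.304 and 0.453). The DNMT1 call also missed for the gene body alone (-0.43, adjusted p = 0.0529) and with 50 kb on each side (-0.18, adjusted p = 0.141). Chromatin architecture genes had 8 negative and 2 positive among 39. RAD21, a cohesin subunit, differed by -0.82 ± 0.20 and was low in Raf-active hypoxia, at 2.57 scaled peaks against 6.07 to 7.82. The RAD21 call missed by nearest gene (-0.44), with 50 kb on each side (-0.31), at equal list length (-0.56), past a -log10 q of 5 (-0.61) and without the log (-2.42 scaled peaks), with limma adjusted p from 0.0521 to 0.210. SMARCA2, the BRM ATPase, differed by 0.66 ± 0.14 (1.06 at matched depth), and NCAPH2, a condensin II subunit, by -0.58 ± 0.15.

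Histone demethylases had 2 positive calls and 1 negative among 21. KDM4C, a H3K9 demethylase, held 47, 51, 50 and 48 peaks in normoxia without active Raf, 16, 19, 15 and 19 in normoxia with it, 48, 44, 45 and 46 in hypoxia without it and 28, 26, 28 and 28 in hypoxia with it. The groups with and without active Raf did not overlap in either oxygen state, and the Raf-active hypoxia libraries were all above the Raf-active normoxia ones. Its difference was 0.74 ± 0.08 (limma, adjusted p = 9.95e-06; 0.64 at matched depth). KDM6B, a H3K27 demethylase, differed by 0.39 ± 0.13. KDM5B, a H3K4 demethylase, differed by -0.80 ± 0.18 (adjusted p = 0.00489), but by -0.25 at matched depth (adjusted p = 0.366) and 0.40 over peaks listed with 5-fold enrichment or more (adjusted p = 0.214).

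Neural adhesion genes had the most positive calls of the 28 lists by share, 12 positive and 2 negative among 29, with a median of 0.21. The median at matched depth was 0.25, with 9 positive calls and 1 negative. NLGN1, a postsynaptic adhesion protein, held 53, 52, 64 and 61 peaks in normoxia without active Raf, 13, 13, 13 and 17 in normoxia with it, 60, 60, 59 and 54 in hypoxia without it and 25, 28, 26 and 27 in hypoxia with it. As at KDM4C, the Raf-active libraries were low in both oxygen states and less so in hypoxia. The difference at NLGN1 was 0.85 ± 0.11 (limma, adjusted p = 3.96e-05; 0.76 at matched depth), and without the log it was 8.80 scaled peaks and missed the threshold (adjusted p = 0.0609). NCAM2 and CADM3, both immunoglobulin-type adhesion proteins, differed by 0.75 ± 0.16 and 0.77 ± 0.13, and NCAM2 missed the threshold without the log (2.35 scaled peaks, adjusted p = 0.228). The 22 tested clustered protocadherins had 0 calls by limma, and 21 of 22 values were below 0. At an unadjusted p below 0.05 by limma there were 4, beside 5093 of all 15217 tested loci. They overlap each other on chromosome 5 and share peaks.

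Signalling and lineage genes were mixed. TGF-beta pathway genes had 6 negative calls and 3 positive among 36, with BMP4, a secreted ligand, at -1.12 ± 0.20, SKIL, a SMAD corepressor, at -0.84 ± 0.17, and LTBP3, a latent TGF-beta binding protein, at -0.64 ± 0.13. SKIL held 4, 4, 5 and 4 peaks in normoxia without active Raf, 15, 12, 13 and 17 in normoxia with it, 3, 3, 3 and 3 in hypoxia without it and 6, 4, 7 and 5 in hypoxia with it, so that Raf-active normoxia was apart from the rest. NOTCH pathway genes had 4 negative and 3 positive among 26, with the receptor NOTCH1 at -0.69 ± 0.12, NUMBL, a NUMB-family adaptor, at -0.88 ± 0.21, and NRARP, a NOTCH feedback regulator, at -0.56 ± 0.17. NOTCH1 was at 0.09 over peaks listed with 5-fold enrichment or more (adjusted p = 0.755), and NRARP missed at matched depth (-0.34, adjusted p = 0.292). HOX genes had 7 negative and 1 positive among 29. HOXC6 and HOXC5 share the same peaks and both differed by -1.32 ± 0.33 (adjusted p = 0.0081), a call that missed at matched depth (-0.96, adjusted p = 0.0533), while HOXD13 differed by 1.21 ± 0.28.

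Cell cycle genes had 4 positive and 3 negative calls among 41, led by the replication factor MCM10 at 1.06 ± 0.20 and the ribonucleotide reductase subunit RRM2 at 0.61 ± 0.10, with KIF23, a cytokinesis kinesin, at -0.58 ± 0.18. Fibroblast matrix genes had 4 positive and 6 negative among 44. The small proteoglycans LUM and OGN differed by -0.84 ± 0.20 and 0.84 ± 0.23, and THBS2, a matricellular thrombospondin, by -0.54 ± 0.13. The THBS2 call missed at matched depth (-0.27, limma, adjusted p = 0.135) and under 5 other settings. Interferon response genes had 5 negative calls and 0 positive among 28. By limma 16 of 28 were at an unadjusted p below 0.05 in either direction, beside 5093 of all 15217 tested loci. IFI35 differed by -0.78 ± 0.16, the DNA sensor IFI16 by -0.48 ± 0.15 and the RNA sensor RIGI by -0.45 ± 0.14. The RIGI call missed at matched depth (-0.31, limma, adjusted p = 0.106) and under 6 other settings. Zinc finger genes of chromosome 19 had 16 negative and 5 positive among 114, with ZNF8 at -1.15 ± 0.17, ZNF91 at -0.98 ± 0.16 and ZNF20 at -0.84 ± 0.16. ZNF91 was at 0.08 by nearest gene and at 0.07 with 50 kb on each side (limma, adjusted p = 0.759 and 0.804). Keratins had 3 negative calls and 0 positive among 29 (limma, 7 at an unadjusted p below 0.05), namely KRT3 at -1.09 ± 0.23, KRT72 at -0.82 ± 0.17 and KRT4 at -0.60 ± 0.15.

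Markers of other cell types were called at 12.5% (epithelial), 5.88% (endothelial), 25% (blood) and 9.09% (neuronal), beside 19.6% of all tested loci. These sets were small. Epithelial markers had 2 positive among 16 (MUC1 at 0.66 ± 0.17 and EPCAM at 0.51 ± 0.16), and 0 at matched depth. Endothelial markers had 1 negative among 17, which was KDR. Blood markers had 2 negative and 1 positive among 12 (CD14 at -0.70 ± 0.16, CD68 at -0.34 ± 0.11 and PTPRC at 0.36 ± 0.13), and neuronal markers 1 negative among 11 (SLC17A7 at -0.57 ± 0.17). At matched depth PTPRC and SLC17A7 missed (0.16 and -0.42, limma, adjusted p = 0.526 and 0.145), and by nearest gene PTPRC was called with the other sign (-0.46, adjusted p = 1.48e-05). Histone genes had 5 positive and 2 negative among 64, in clusters that share peaks: H2BC12 and H4C9 both at 0.50 ± 0.15 and H2AC15 at -0.49 ± 0.16. Over peaks listed with 5-fold enrichment or more H2BC12 and H4C9 were called with the other sign (-0.44, limma, adjusted p = 0.046). Olfactory receptors had 3 positive among 25 (OR51E2 at 0.61 ± 0.19, OR4F15 at 0.58 ± 0.15 and OR51B5 at 0.55 ± 0.13). The 19 histone protease and cathepsin genes and the 13 keratin-associated protein genes had 0 calls by limma. At an unadjusted p below 0.05 by limma there were 6 and 1, beside 5093 of all 15217 tested loci. Some calls among the listed genes lay close to the threshold. At 14 named loci (CD68, EPCAM, GAPDH, H2AC15, H2BC12, H4C9, IFI16, KDM6B, KIF23, NRARP, OR51E2, PGK1, PTPRC and RIGI) leaving out 1 library could end the call. The number of libraries whose loss did so was 2 to 13, depending on the locus, and every sign was kept.

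Of the 90 named loci that were called, 53 missed the threshold under at least 1 of 14 other settings, and 37 passed under every setting that could be run on them. Counting only peaks listed with 5-fold enrichment or more ended 29 of 51 calls and turned 14 signs. Besides the loci given with that setting above, PGK1, KDM6B, RIGI, EPCAM, PTPRC, SLC17A7, H2AC15 and OR51B5 turned sign there, and HMGA2, CXCL3, PDK1, GAPDH, BATF, RRM2, KIF23, THBS2, NCAPH2, IFI35, IFI16, CD68, OR4F15 and KRT4 missed. With 50 kb on each side 24 of 90 calls were lost, among them ELK4, SRF, BATF, KIF23, LUM, THBS2, SKIL, LTBP3, NUMBL, KDM6B, CADM3, HOXC6 and HOXC5. By nearest gene 14 of 67 were lost, among them ELK4, KLF6, BATF, BMP4, NUMBL, KDM6B, CADM3 and EPCAM. For the gene body alone 9 of 49 were lost, among them ELK4, KLF6, LTBP3 and IFI16. At matched depth 11 of 78 were lost, all named above, and MUC1 and EPCAM are the 2 epithelial loci. Besides loci given above as below the mean for that test, LOC124901872, MCM10, ZNF91 and OR51E2 were also below it. At equal list length 12 of 79 were lost, among them CXCL3, BATF and IFI16, and past a -log10 q of 5 it was 12 of 83, among them SRF, KDM5B and IFI16. By base pairs covered 8 of 48 were lost, with GAPDH, KIF23, NCAPH2, RIGI and H2AC15 short of the threshold and KDM6B, H2BC12 and H4C9 turned in sign. On scaled peaks without the log 9 of 90 were lost, among them OR51E2 and OR51B5.

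**Figure D3:**
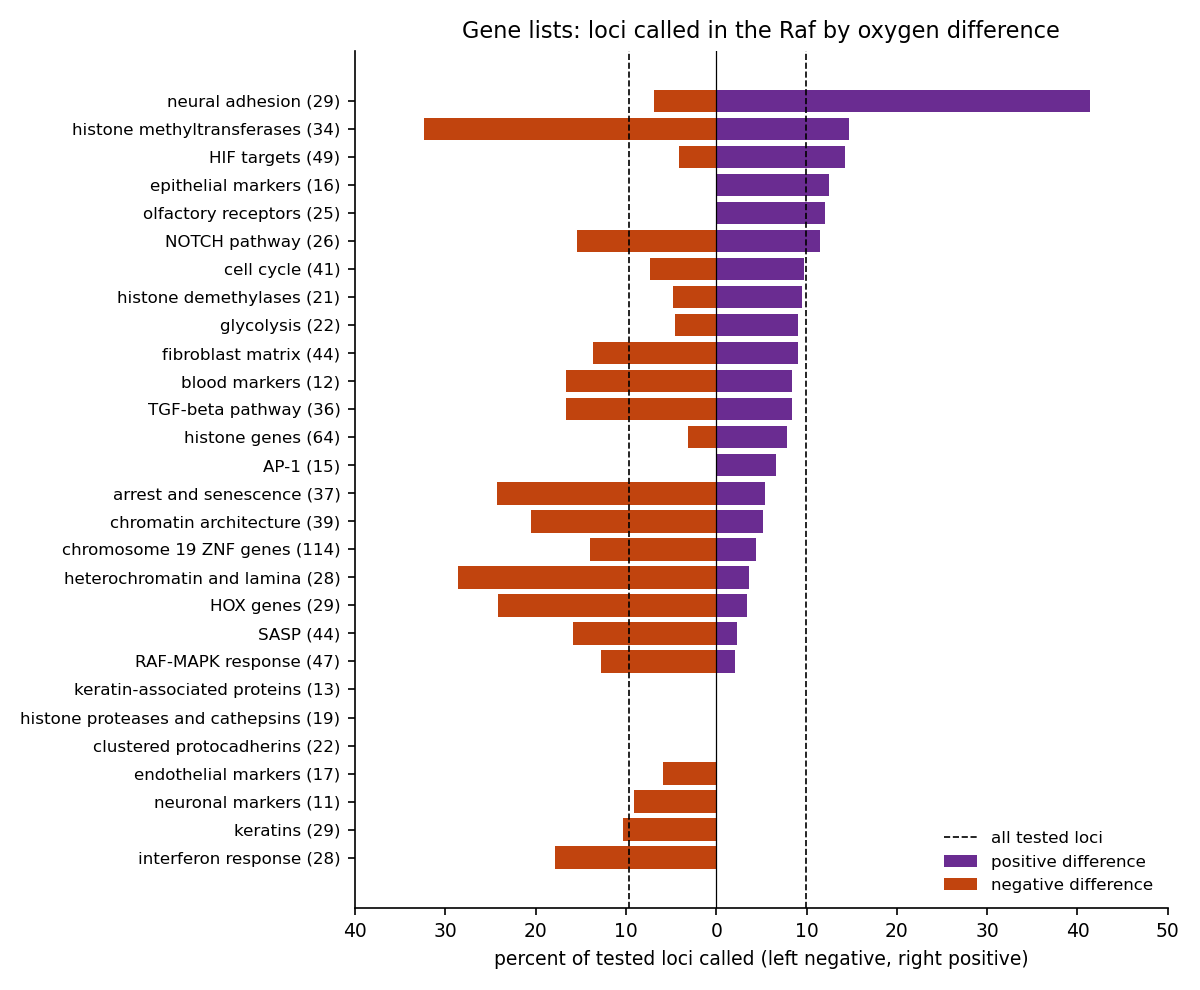
Bars give the percent of tested loci of each list called positive (right, purple) or negative (left, orange), with the number tested in brackets and dashed lines at the 9.91% and 9.65% of all loci. Neural adhesion genes reach farthest right, with 12 of 29 loci, and histone methyltransferases farthest left, with 11 of 34.

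Along the chromosomes the difference was weakly related to gene density, and the quintile of bins with the most genes stood apart. Of 2439 1-Mb bins averaging 10 or more peaks, 1180 (48.4%) were called by limma, 735 (30.1%) positive and 445 (18.2%) negative. At matched depth 1015 were called, 640 positive and 375 negative. The median difference was 0.12 in the quintile of bins with the fewest genes (168 positive calls and 70 negative) and -0.06 in the quintile with the most (69 positive and 169 negative). The middle quintiles had medians of 0.08, 0.04 and 0.06. Over the bins Spearman's rho between the difference and the number of genes was -0.21, and -0.21 at matched depth. Neighbouring bins are not independent, and no p is given. By chromosome, the medians were highest on 18 (0.15, 26 positive and 6 negative), X (0.14, 43 and 6), 4 (0.12) and 13 (0.11), and lowest on 19 (-0.09, 9 and 24) and 17 (-0.06, 15 and 28). The share of bins called was 45.0% to 50% in every quintile. The share of all peaks in gene-poor bins (at most 1 gene), given below, differed by 0.03 percentage points (exact permutation p = 0.771). Without scaling to the same total, limma called 863 bins positive and 269 negative. Without the log it called 591 positive and 505 negative.

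**Figure D4:**
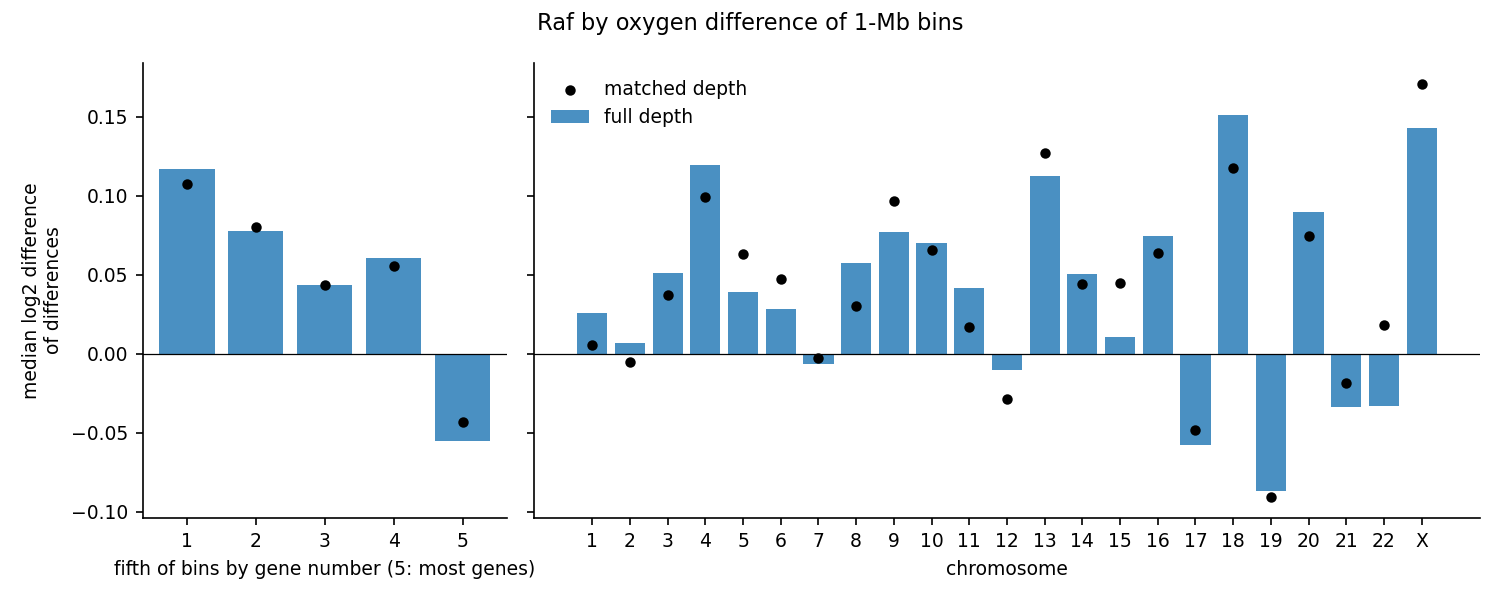
Bars give the median log2 difference of differences of 1-Mb bins by quintile of gene number (left) and by chromosome (right), and black points the same at matched depth. The quintile with the most genes, at -0.06, is the one quintile below 0, and chromosomes 18 and X stand highest.

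The largest positive bin was chrX:131000001-132000000, with the genes ARHGAP36, IGSF1 and OR13H1. Its scaled peaks were 26.6, 26.8, 26.6 and 25.1 in normoxia without active Raf, 7.50, 5.55, 5.92 and 10.1 in normoxia with it, 32.2, 29.2, 29.9 and 29.3 in hypoxia without it and 25.2, 25.6, 24.5 and 27.1 in hypoxia with it. Raf-active normoxia alone was low. The difference was 1.53 ± 0.14 (limma, adjusted p = 2.06e-11; 2.06 at matched depth). A bin without a protein-coding gene, chr19:28000001-29000000, had the same shape, with group means of 23.1, 7.28, 21.5 and 19.1 and a difference of 1.38 ± 0.13 (1.36 at matched depth). At chr5:117000001-118000000 the means were 37.9, 0.707, 45.1 and 4.19, and the log2 difference of 1.41 ± 0.20 depended on the scale. Without the log the difference there was -3.71 scaled peaks, because the Raf-inactive level was also higher in hypoxia. Over peaks listed with 5-fold enrichment or more the call was lost (0.44, limma, adjusted p = 0.184).

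In the 3 largest negative bins Raf-active hypoxia had the lowest mean. At chr4:79000001-80000000, with NAA11, GK2 and ANTXR2, the means were 17.2, 21.4, 20.9 and 9.07 scaled peaks, and the difference was -1.42 ± 0.15 (limma, adjusted p = 2.14e-10) but -0.72 at matched depth. At chr6:69000001-70000000, which holds the adhesion receptor gene ADGRB3, the means were 19.6, 15.8, 21.7 and 7.91, and the difference was -1.05 ± 0.15 (-1.27 at matched depth). At chr1:103000001-104000000, which holds the amylase genes, the means were 11.1, 5.65, 20.4 and 4.65, and the difference was -1.03 ± 0.19. There both Raf-active groups were low and overlapped, and the group apart was a high Raf-inactive hypoxia. The amylase genes are near-identical copies, where mapping of reads is uncertain. The bin chr9:22000001-23000000, with CDKN2B and DMRTA1 and chosen after its value was seen, had 52.1, 50.3, 46.8 and 46.0 scaled peaks in normoxia without active Raf, 66.5, 62.0, 64.1 and 67.9 in normoxia with it, 64.4, 63.8, 57.7 and 60.8 in hypoxia without it and 45.7, 42.7, 49.0 and 46.8 in hypoxia with it. Here the Raf change turned sign, with Raf-active libraries above the Raf-inactive ones in normoxia and below them in hypoxia. The difference was -0.82 ± 0.08 (adjusted p = 1.81e-11; -0.71 at matched depth).

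Merged regions gave the same question at the scale of single peaks. Of 299052 regions listed in at least 2 libraries, 11562 (3.87%) had an all-or-none pattern with a positive difference and 10593 (3.54%) one with a negative difference, with no test. At matched depth these were 9394 and 8016. The commonest class was a peak in Raf-active normoxia alone, with 6567 regions (4717 at matched depth), followed by Raf-active hypoxia alone with 5354 (3519). The bracketed totals include regions that joined from other patterns. Of the full-depth members, 3185 (48.5%) and 2591 (48.4%) stayed in their class at matched depth. Over all classes the share that stayed ran from 39.6% to 78.6%. Raf-inactive normoxia alone had 2659 (3104), and Raf-inactive hypoxia alone 1813 (1458). Regions lacking a peak in 1 group alone numbered 2581 for Raf-active normoxia (1864), 1491 for Raf-inactive normoxia (1200), 920 for Raf-inactive hypoxia (860) and 683 for Raf-active hypoxia (611). Crossed patterns were rare, with 48 regions in Raf-inactive normoxia and Raf-active hypoxia only (47) and 39 in Raf-active normoxia and Raf-inactive hypoxia only (30). Over peaks listed with 5-fold enrichment or more the regions in Raf-active normoxia alone were 3823, those in Raf-active hypoxia alone 3512 and those lacking in Raf-inactive hypoxia alone 544.

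**Figure D5:**
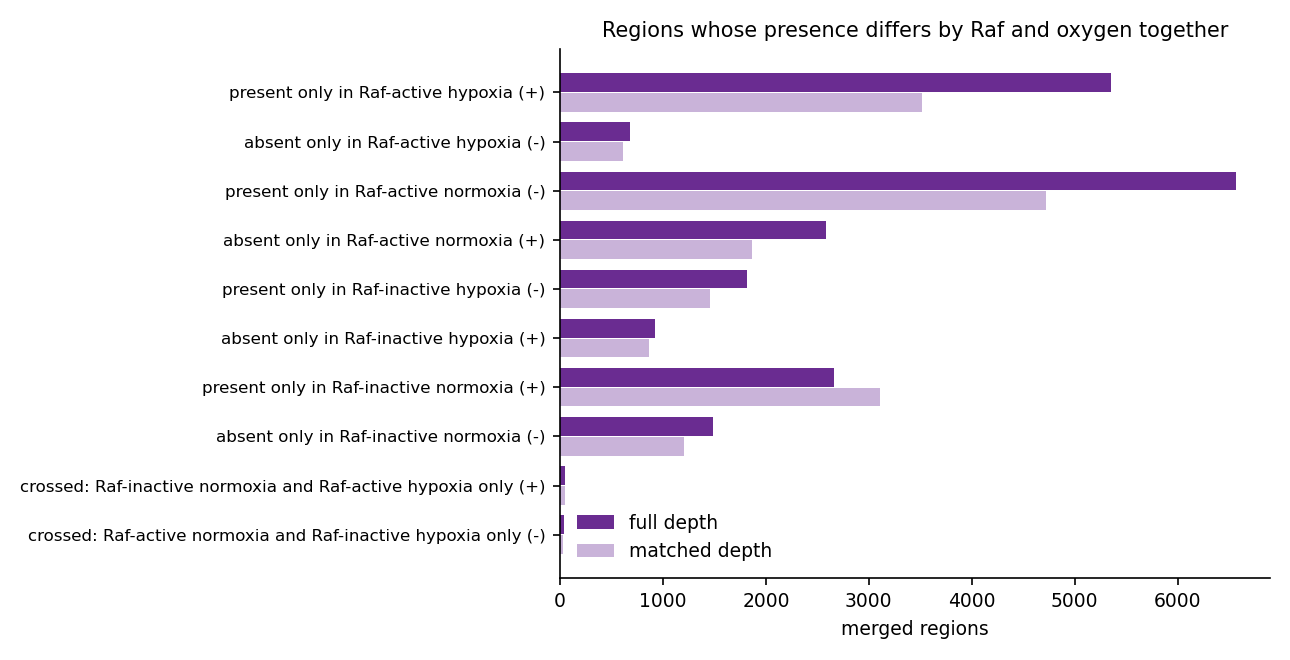
Bars give the number of merged regions in each all-or-none class, at full depth (dark) and at matched depth (light), with the sign of the difference in brackets. Peaks in Raf-active normoxia alone (6567) and in Raf-active hypoxia alone (5354) are the 2 commonest classes.

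The classes lay in different surroundings. Gene-poor bins, the quintile with at most 1 gene, held 5.03% of all regions, 2.63% of those with a peak in Raf-active normoxia alone and 9.53% of those lacking one there alone. They held 13.1% of regions with a peak in Raf-inactive hypoxia alone and 1.96% of those lacking one there alone. The share with a gene end within 1 kb was 8.64% of all regions, 6.90% in Raf-active normoxia alone, 4.35% in Raf-active hypoxia alone and 1.58% in Raf-inactive normoxia alone. Regions lacking a peak in 1 group were longer, with a median of 640 bp for Raf-active normoxia against 343 bp for the regions with a peak there alone. A region is the union of its peaks, and regions lacking a peak in 1 group join peaks of more libraries. Part of this gap therefore follows from the merging. Bins rich in a class were chr15:63000001-64000000 (TPM1, CA12 and other genes), with 16 regions seen in Raf-active normoxia alone, chr5:158000001-159000000 (EBF1, a B-cell and stromal factor), with 16 seen in Raf-active hypoxia alone, and the X bin of IGSF1 above, with 10 lacking in Raf-active normoxia alone.

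The best ranked region of each class showed its strong end and not its typical peak. The median fold enrichment over background was 4.06 for regions in Raf-active hypoxia alone and 3.77 in Raf-active normoxia alone. Over all regions it was 5.20. For regions lacking in Raf-active hypoxia alone it was 6.23, and for those lacking in Raf-active normoxia alone 7.84. In Raf-active hypoxia alone, chr10:49577195-49578132, 30963 bp from CHAT, the choline acetyltransferase gene, had fold enrichments over background of 19.3 to 20.6 as the authors listed them. In Raf-active normoxia alone, chr12:115671880-115672579, outside any gene and nearest to MED13L, had 17.2 to 19.3. Lacking in Raf-active normoxia alone, chr4:25351639-25352561, inside ZCCHC4, had 14.95 to 28.92 in the 12 other libraries. Lacking in Raf-active hypoxia alone, chr1:8903536-8904500, 24850 bp from the glycolytic gene ENO1, had 3.80 to 14.8. Lacking in Raf-inactive normoxia alone, chr1:53553312-53553923, inside GLIS1, had 8.44 to 17.0, and lacking in Raf-inactive hypoxia alone, chr2:238945772-238946097, 35238 bp from TWIST2, a mesenchymal transcription factor gene, had 4.73 to 7.89. Seen in Raf-inactive hypoxia alone, chr1:221865788-221866196, nearest to the MAPK phosphatase gene DUSP10, had 5.36 to 6.59, and in Raf-inactive normoxia alone, chr11:122285009-122285451, nearest to BLID, had 12.4 to 16.5. All 8 stayed in their class at matched depth. The best ranked region of each crossed class was weaker. In Raf-inactive normoxia and Raf-active hypoxia only, chr1:110006018-110006305, inside AHCYL1, had 2.50 to 4.95, and in Raf-active normoxia and Raf-inactive hypoxia only, chr16:57304182-57304585, 19510 bp from PLLP, had 3.53 to 4.12.

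At full depth no whole-list measure passed the threshold in the main exact permutation test (adjusted p from 0.143 to 0.771). The share of peaks within 1 kb of a gene end was 11.09, 11.02, 10.93 and 10.95% in normoxia without active Raf, 11.46, 11.42, 11.71 and 11.32% in normoxia with it, 11.49, 11.36, 11.76 and 11.65% in hypoxia without it and 11.32, 11.43, 10.998 and 11.28% in hypoxia with it. It was lowest in Raf-inactive normoxia. The difference of differences was -0.79 percentage points. The replicate numbers do not pair the samples, so that taking hypoxia minus normoxia within a number is only a fixed way to form 4 values per Raf state. These values were 0.34 to 0.84 without active Raf and -0.72 to 0.01 with it, which do not overlap. A two-sided exact permutation test of these 4 against 4 values gave p = 0.0286, the smallest its 70 rearrangements allow, and 0.143 after Benjamini-Hochberg adjustment over 5 measures, a test that could not pass unless several measures reached that smallest value. Exchanging the oxygen labels within each Raf state uses no pairing. It gave p = 0.00204 for the same difference (exact permutation, adjusted 0.0102), past the threshold. The other 4 measures missed it (exact permutation, adjusted p from 0.142 to 0.902). The null of this exchange is no oxygen effect in either Raf state. That is stricter than no interaction, so the exchange is not an exact test of the interaction. At matched depth the difference was -0.69 (exact permutation, adjusted p = 0.0476), and over peaks listed with 5-fold enrichment or more it was -0.09.

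The length of genome covered by peaks was 77.5, 77.5, 80.8 and 81.8 Mb in normoxia without active Raf, 91.5, 92.5, 85.5 and 91.3 Mb in normoxia with it, 81.3, 83.2, 79.0 and 78.9 Mb in hypoxia without it and 97.7, 96.8, 102.1 and 98.6 Mb in hypoxia with it. Raf-active hypoxia was above every other group. The difference of differences was 7.42 Mb (exact permutation p = 0.0571, adjusted 0.143), and 7.70 Mb at matched depth (adjusted p = 0.0476). For the number of distinct peaks it was 6246 (exact permutation p = 0.314, adjusted 0.393) and 7993 at matched depth (adjusted p = 0.0476), but -2774 among peaks that passed a -log10 q of 5. Mean peak length differed by 20.3 bp (exact permutation p = 0.114, adjusted 0.190). The share of peaks in gene-poor bins differed by 0.03 percentage points (exact permutation p = 0.771), which was within the spread between libraries.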

How the data were processed

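The deposited files were 1 peak list per library, in narrowPeak form on hg38. Peaks were called with MACS2 after Bowtie2 alignment, and FastQC, cutadapt, SAMtools, Picard, deepTools and bedtools were also used, per the submitters' processing notes, which give no versions or settings. Each deposited peak has a display score, a fold enrichment over background, and −log10 p and q values as the authors' caller gave them. The score was used only to check the format. Replicates were listed separately.

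Identical intervals were merged, and chromosomes 1 to 22 and X were kept. Scaled peak numbers per locus (19970 protein-coding RefSeq genes) or bin were analysed as log2(value + 1) in limma 3.58.1 (R 4.3.3) with 4 group means, a trended prior, the interaction contrast and Benjamini-Hochberg adjustment over all loci or bins. Differences are thus understated for loci with few peaks. Peak number reflects calling as well as accessibility. The script was tested on simulated data. Pileup and background were recovered from the listed fold and p, and matched-depth lists were thinned to a background of 3.01 with a −log10 p of at least 5 kept. Their peak lengths stayed as called.

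Loci named are the 10 largest in each direction among called loci whose sign no choice of 1 library per group turned, 14 chosen loci, and up to 3 called loci of each of 28 lists. For bins these were the 3 largest in each direction, and for regions the best ranked of a class. Members and lists were chosen with earlier results of these data known. Promoter windows were added after the files had been seen, since no genome was used here. RefSeq sequences come from GRCh38.p14, and the windows on chromosome 8 were not used. Motifs in regions were not analysed here. The number of libraries sets the precision, since read totals were not given in the sources used here. Same-numbered libraries did not deviate together (24 correlations over loci from -0.04 to 0.02), so the numbers do not pair the samples.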

Additional observations from a re-analysis of the deposited data

Results flagged for a closer look

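The Raf change differed between normoxia and hypoxia, by the interaction term in limma, at 2976 gene loci and in 1180 bins of 1 Mb.

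Among 104 groups of 4 libraries at the 20 named loci with the largest differences, the 5 whole-list measures and the background pileup, 15 held 1 library far from the other 3 by Dixon's criterion. Chance flags about 1 in 20 groups, and peak numbers are small whole numbers, so that 3 equal values make 1 step look far. In Raf-active normoxia, replicate 2 was the highest at PHACTR3 (2.65 scaled peaks), PKHD1 (0.882) and C1QL3 (0.882). In Raf-active hypoxia, replicate 2 was the lowest at DCHS2 (3.80) and COL19A1 (2.85) and the highest at NECAB1 (0.949), and replicate 4 was the lowest at C1QL3 (2.81). Raf-inactive hypoxia replicate 3 was the lowest at SKOR2 (3.43), LOC124901872 (1.14), TNR (4.57) and COL19A1 (5.71) and the highest at NBN (6.85). Replicate 2 of that group was the lowest at DCHS2 (5.59). In Raf-inactive normoxia, replicate 3 was the lowest at CASP4 (2.17) and replicate 2 at COL19A1 (5.45). The differences at all of these loci kept their sign and their call when any 1 library was left out.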

How the results depend on the processing

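At gene loci the calls numbered 2070 (mean of at least 6 peaks) to 3608 (no filter on the mean) over the alternatives at the same locus width. With 50 kb on each side 2404 loci were positive, and negative calls numbered 975 for the gene body alone and 950 with a mean of at least 6 peaks. Bins of 500 kb gave 1854 calls, 1147 positive and 707 negative, and without scaling 269 bins of 1 Mb were negative. Regions present in at least 3 of 4 libraries against at most 1 of 4 numbered 66315, 34511 positive and 31804 negative. At matched depth the differences in distinct peaks (7993), Mb covered (7.70) and gene-end share (-0.692) each reached an adjusted p of 0.0476 by exact permutation. With oxygen labels exchanged within each Raf state the gene-end share of -0.790 had p = 0.00204 by exact permutation (adjusted 0.0102). The null of that exchange is no oxygen effect in either Raf state, which is stricter than no interaction. The difference in distinct peaks was -2774 among peaks that passed a -log10 q of 5, and in gene-poor share -0.0031 at equal list length. Among promoter windows, the classes with a peak in Raf-inactive normoxia alone, with one in Raf-inactive hypoxia alone and lacking one in Raf-active hypoxia alone held 25, 22 and 16 windows over peaks listed with 5-fold enrichment or more, Raf-active hypoxia alone held 28 at matched depth, lacking there alone held 3, and the crossed class held 0 under both. The cause was not tested for any of these. The overlap of at least 50% gave the same regions by construction, and the planned motif windows on regions were not run.

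Leaving out 1 library at a time gave 2541 to 2860 loci (1303 to 1462 positive, 1209 to 1403 negative), 1080 to 1193 bins (683 to 764 positive, 396 to 452 negative) and differences of 3185 to 7939 peaks, 5.85 to 8.29 Mb, -0.859 to -0.704 points of gene-end share, -0.0266 to 0.0834 points of gene-poor share and 17.0 to 24.4 bp of mean length.

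With the replicate number as a block 2849 loci (1469 positive, 1380 negative) and 1167 bins (733 positive, 434 negative) were called. The block ended the calls at PGK1, KDM6B and CD68 (adjusted p 0.0624, 0.0581 and 0.0507) and changed no other call at a named locus. Of the 16 libraries, 2 correlated best with their own number.

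Signs turned at loci that missed the threshold and at called ones, among them DNMT1, KDM5B, CBX5, NOTCH1 and ZNF91. Past a -log10 q of 5 the values were 0.088 at IL6, 0.27 at TERT, 0.15 at CA9 and 0.066 at MXI1. By base pairs covered they were 0.0052 at DUSP6, -0.14 at VEGFA, -0.00405 at KDM6B, -0.072 at H2BC12 and H4C9 and 0.12 at MXI1. At equal list length they were 0.13 at IL6, 0.16 at CA9 and 0.13 at MXI1. Over peaks listed with 5-fold enrichment or more they were -0.062 at PGK1, 0.094 at NOTCH1, 0.40 at KDM5B, -0.18 at KDM6B, 0.31 at DNMT1, 0.17 at CBX5, 0.13 at RIGI, -0.056 at EPCAM, -0.23 at PTPRC, 0.31 at SLC17A7, -0.44 at H2BC12 and H4C9, 0.13 at H2AC15, -0.014 at OR51B5 and 0.13 at MXI1. For the gene body alone they were 0.13 at IL1A and 0.079 at MXI1, and with 50 kb on each side -0.20 at MMP1 and 0.070 at ZNF91. At matched depth they were 0.092 at IL6, -0.068 at VEGFA, 0.018 at CA9 and 0.18 at MXI1. By nearest gene they were 0.043 at IL1B, 0.39 at CA9, -0.46 at PTPRC and 0.082 at ZNF91. Leaving out 1 library gave -0.12 to 0.024 at CA9, -0.17 to 0.074 at IL6 and -0.12 to 0.0014 at MXI1. The bin at chr5:117000001-118000000 was -3.71 without the log.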
